A study of Mus musculus with 6 samples.

Results

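The adult globin rows of mouse bone marrow progenitor libraries are described here: Beta-s, Hbb-b1 and Hbb-b2, which are beta chain genes, and Hba-a1 and Hba-a2, which are alpha chain genes. They were chosen by symbol, 5 of the 23538 gene rows in each table. The choice was made with their measured levels in these libraries already known. Those levels and the p-values on them are therefore given as a description and not as independent support. Each library was made by CEL-Seq2, a method that counts 3' ends of polyadenylated RNA, from a sort of 15 cells. The 36 libraries came from 6 populations and 2 genotypes, wild type and Mof -/+, with 3 libraries in each group. Mof is a histone acetyltransferase, listed under its symbol Kat8, and -/+ is read here as heterozygous. The labels give no age, sex or strain and no allele of Mof beyond -/+ and do not say whether replicate libraries stem from different mice, so each p-value below measures only the spread between libraries.

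The populations were gated as follows. Haematopoietic stem cells (HSC) were LSK+ (negative for lineage markers, positive for Sca-1 and Kit), CD34-, Flt3-, CD48- and CD150+. The multipotent progenitors were also LSK+: MPP2 was CD34+, Flt3-, CD48+ and CD150+, MPP3 differed from it by lacking CD150, and MPP4 was CD34+, Flt3+, CD48+ and CD150-. Common myeloid progenitors (CMP) were lineage- and Sca-1-negative, Kit+, CD34+, IL7r- and low for CD16/32. Megakaryocyte-erythroid progenitors (MEP) were also lineage- and Sca-1-negative, Kit+ and IL7r-, but CD34- and CD16/32-. The wild-type HSC, MPP and late progenitor (CMP and MEP) libraries were listed under 3 samples and the heterozygous ones under 3 others. Each sample is read here as a sequencing pool, which the labels do not state. On that reading, genotype and pool cannot be told apart.

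Haemoglobin is a tetramer of alpha and beta chains with haem, and red cells make both chains in near balance. In the mouse the adult alpha genes lie in one cluster and the adult beta genes in another, and each is switched on by GATA1, KLF1 and their partners as erythroblasts mature. Globin mRNA becomes the most abundant message of late erythroblasts and reticulocytes, while stem cells and early multipotent progenitors are not known for making haemoglobin.

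RefSeq (GRCm38.p6) lists Beta-s as a synonym of Hbb-bs, at chr7:103826523-103827928 on the minus strand. It places Hba-a1 at chr11:32283672-32284486 and Hba-a2 at chr11:32296492-32297310, both on the plus strand. Promoter entries matched 3 of the 5 rows. For Hbb-b1 and Hbb-b2 RefSeq lists chromosome 7 with positions 38285-39684 and 53494-54867, which are not chromosome coordinates. Neither gene is therefore placed beside Beta-s here. The 250 bases before the transcript start are shown for the most abundant beta row and the most abundant alpha row, because their counts set nearly all of the values below. The first window is chr7:103827929-103828178 (minus strand) and the second chr11:32283422-32283671 (plus strand).
Beta-s: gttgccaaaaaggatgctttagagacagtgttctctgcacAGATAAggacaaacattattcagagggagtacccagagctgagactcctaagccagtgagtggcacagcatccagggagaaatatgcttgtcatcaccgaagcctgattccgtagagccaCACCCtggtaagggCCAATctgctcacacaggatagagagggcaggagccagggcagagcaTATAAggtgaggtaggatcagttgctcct
Hba-a1: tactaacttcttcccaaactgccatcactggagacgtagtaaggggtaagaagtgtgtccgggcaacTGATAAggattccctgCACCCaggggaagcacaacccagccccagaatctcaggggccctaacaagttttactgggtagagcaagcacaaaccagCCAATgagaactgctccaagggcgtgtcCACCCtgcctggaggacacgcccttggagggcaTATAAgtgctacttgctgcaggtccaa
Capitals mark matches to the letters searched on both strands, AGATAA and TGATAA (bound by GATA factors), CACCC (bound by KLF1), CCAAT and TATAA, and no match overlaps another. Beta-s held AGATAA from base -210, CACCC from -90, CCAAT from -76 and TATAA from -29, counted from the transcript start. Hba-a1 held TGATAA from -183, CACCC from -167 and from -60, CCAAT from -88 and TATAA from -27. Both windows thus held a GATA match farthest from the start and TATAA nearest to it. Among all 32851 RefSeq promoter windows of 300 bases, AGATAA occurred in 11.2%, TGATAA in 9.05%, CACCC in 57.5%, CCAAT in 37.4% and TATAA in 24.9%. These are letter matches only. Hba-a1 and Hba-a2 are near-identical copies: their promoter windows were identical over all 297 aligned bases, and their longest GENCODE M21 transcripts differed at 1 of 538 aligned bases. How reads that map to both were counted is not given in the sources used here, so the split between these 2 rows is uncertain and their sum is used where possible. Hbb-bs and its neighbour Hbb-bt were 92.7% identical over their transcripts and 87.5% over the last 300 bases. Hbb-bt was not analysed here. Hbb-b1 and Hbb-b2 were not compared in sequence with Beta-s, and how reads shared by beta rows were counted is not given either. The split of counts among the beta rows is therefore uncertain as well.

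Library totals ran from 1577 to 123765 recovered counts (median 41227), with 743 to 9359 detected genes in a library. There were 6 libraries of under 13000 counts: all 3 of wild-type MPP2, wild-type MPP3 replicates 1 and 2, and heterozygous HSC replicate 2, which was the shallowest. Kat8, the targeted gene, had 12 counts in the 18 wild-type libraries (18.3 CPM pooled, where CPM is the count scaled to a library total of 1000000) and 11 in the 18 heterozygous ones (9.86 CPM), too few to check the genotype of any library. In the wild-type MEP table the row names shift after 6842 genes, and names were taken by position from the other tables. Under the names as deposited, the rank correlation of MEP with wild-type CMP across genes was 0.353, and by position it was 0.905.

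Beta-s carried almost all of the globin signal. It had 12674 of the 12966 globin counts (97.7%) and was detected in 30 of 36 libraries. Hba-a1 followed with 197 counts in 17 libraries, and Hbb-b2 with 77 counts in 14. Hba-a2 and Hbb-b1 had 9 counts each, in 6 libraries each. In the 12 libraries with at least 100 globin counts, Beta-s made up 94.5% to 99.1% of them.

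Globin levels differed between single libraries of the same sorted population by factors far above counting error. In wild-type MPP4 the 5 rows summed to 339, 25720 and 146563 CPM in replicates 1, 2 and 3. In heterozygous MPP4 they summed to 7833, 897 and 103434 CPM. The highest library of each genotype was thus an MPP4 replicate, and in these globin made up 14.7% (exact 95% binomial interval 14.1% to 15.2%) and 10.3% (10.1% to 10.6%) of all counts. Those 2 libraries held 53.1% of all globin counts in the series. All intervals on counts cover counting error only.

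The stem cells showed the clearest split between genotypes. Beta-s had 202, 1197 and 782 counts in wild-type HSC replicates 1 to 3, which is 6945, 34108 and 25582 CPM. In heterozygous HSC it had 0, 1 and 0 counts. The groups did not overlap, but the single count fell in the library of 1577 counts, where it equals 634 CPM with an exact 95% Poisson interval of 16.1 to 3533. For the other two heterozygous libraries, a count of 0 allows up to 57.8 CPM in replicate 1 and 140 CPM in replicate 3 (3 counts of the total). Every wild-type HSC library was above each of these limits. How many of all genes were split in this way between the HSC groups was not counted.

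In MPP2, Beta-s had 279, 552 and 4 counts in the wild type, or 27006, 44736 and 354 CPM. In the heterozygotes it had 205, 137 and 328 counts, or 5159, 7128 and 7913 CPM. The wild-type replicates lay on both sides of the heterozygous ones, so the groups overlapped. The heterozygous MPP2 libraries were close to each other (mean 6733 ± 1419 CPM, SD, n = 3), unlike the wild type (24032 ± 22340, SD, n = 3).

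MPP3 was lower. Beta-s had 28, 39 and 6 counts in the wild type (3834, 14110 and 288 CPM) and 62, 57 and 82 counts in the heterozygotes (1055, 713 and 1146 CPM). The groups overlapped here too, and the 2 wild-type libraries above the heterozygous range were the shallow ones. Beta-s in MPP4 had 13, 967 and 2619 counts in the wild type and 905, 50 and 4109 in the heterozygotes, again with overlap.

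CMP and MEP, the populations past the LSK+ gate, had almost no globin. In CMP, Beta-s had 11, 2 and 0 counts in the wild type and 0, 6 and 0 in the heterozygotes. In MEP it had 1 count in each wild-type library and 0, 1 and 27 in the heterozygotes. Heterozygous MEP replicate 3 thus stood apart with 308 CPM (exact 95% Poisson interval 203 to 448) against 0 and 13.3 CPM, and it also held 4 of the 197 Hba-a1 counts. No CMP or MEP library passed 365 CPM for the summed rows. Pooled, the 12 CMP and MEP libraries had 59 globin counts in 916500 (64.4 CPM), and the 24 HSC and MPP libraries 12907 in 855018 (15096 CPM).

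**Figure D1:**
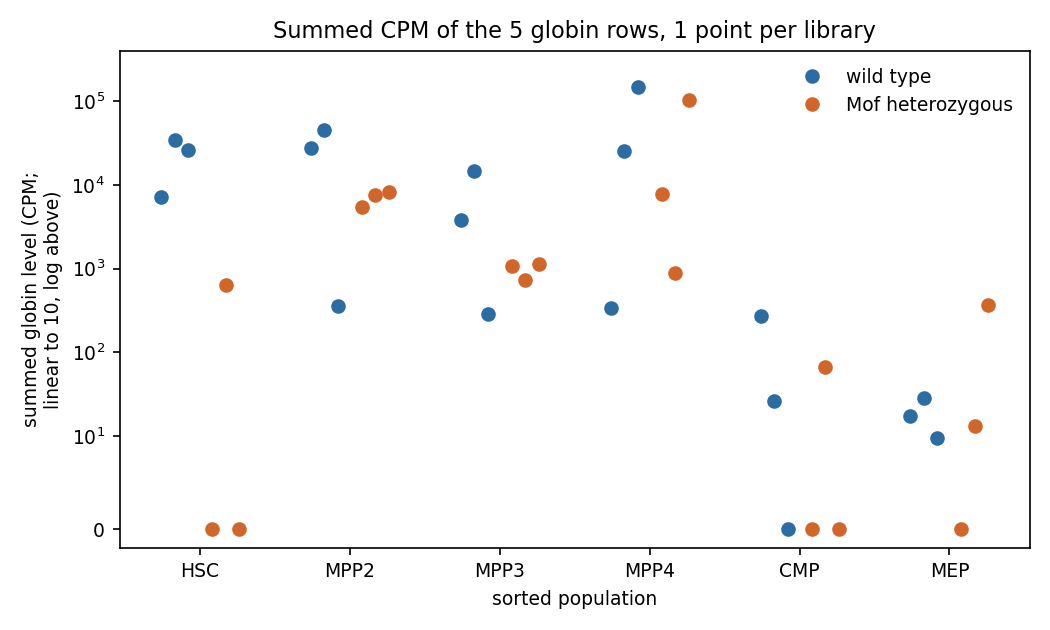
Summed level of the 5 globin rows in CPM (vertical axis, linear to 10 and logarithmic above) for the 36 libraries, by sorted population and genotype, replicates 1 to 3 from left to right in each group. The 3 wild-type HSC libraries lie at 7117 to 34564 CPM and the heterozygous ones at 0, 634 and 0, while CMP and MEP libraries of both genotypes stay at or below 365.

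By mean Beta-s level the wild-type populations ran from MPP4 (56957 ± 77418 CPM, SD, n = 3) through MPP2, HSC (22212 ± 13892) and MPP3 (6077 ± 7179) to CMP (74.6 ± 107) and MEP (18.7 ± 9.45). Neighbours in this order overlapped in range except MPP3 and CMP, whose nearest libraries were at 288 and 197 CPM. The heterozygous order was MPP4 (36248 ± 55499), MPP2, MPP3 (971 ± 228), HSC (211 ± 366), MEP (107 ± 174) and CMP (22.4 ± 38.9). In that order MPP2 and MPP3 did not overlap, nor did MPP3 and HSC, although the HSC value nearest to MPP3 was the single count described above. A level of at least 1000 CPM was reached by 9 of 18 wild-type and 7 of 18 heterozygous libraries, and one of at least 10000 by 7 wild-type and 1 heterozygous library. In libraries of several cells, fewer cells with globin RNA and less globin RNA per cell cannot be told apart.

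Hba-a1, the leading alpha row, was found where Beta-s was high. It had 3, 9 and 11 counts in wild-type HSC (103, 256 and 360 CPM) and none in heterozygous HSC, so the measured values did not overlap. In the shallow heterozygous replicate 2, however, a count of 0 allows up to 1902 CPM, above all of these wild-type values. In MPP2 it had 2, 10 and 0 counts in the wild type and 6, 5 and 11 in the heterozygotes. In MPP4 it had 0, 8 and 12 counts in the wild type and 16, 0 and 95 in the heterozygotes. The last library, heterozygous MPP4 replicate 3, therefore held 95 of the 197 Hba-a1 counts of the series. In MPP3, 1 wild-type and 2 heterozygous libraries had a single Hba-a1 count each, and outside the LSK+ populations it was seen only in wild-type CMP replicate 1 (2 counts) and heterozygous MEP replicate 3 (4 counts).

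The alpha rows together were a small and uneven share of globin counts. In wild-type MPP4 replicate 3 they made up 0.492% of them (exact 95% binomial interval 0.262% to 0.839%), and in heterozygous MPP4 replicate 3 2.33% (1.90% to 2.83%). These intervals do not overlap, so the alpha share differed beyond counting error between the 2 richest libraries. The share was 1.45%, 0.742% and 1.504% in wild-type HSC and 2.80%, 4.14% and 3.50% in heterozygous MPP2. In wild-type MPP2 replicates 1 and 2 it was 0.707% and 1.77%. The loss of reads shared by the 2 alpha copies before counting was not tested as a part of this low share.

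Hba-a2, the second alpha copy, had 1 count in each of 5 libraries (wild-type HSC replicate 3, MPP4 replicate 3 and CMP replicate 1, heterozygous MPP2 replicates 2 and 3) and 4 counts in heterozygous MPP4 replicate 3. Hbb-b2, an adult beta gene of the minor type, had 2, 5 and 3 counts in wild-type HSC and none in heterozygous HSC. In MPP4 it had 0, 4 and 11 counts in the wild type and 8, 0 and 31 in the heterozygotes. Its highest library was therefore the same as that of Hba-a1 and Beta-s by count. Hbb-b1, an adult beta gene of the major type, had at most 2 counts in any library: 0, 2 and 1 in wild-type HSC, 0, 2 and 1 in wild-type MPP4, 2 in heterozygous MPP4 replicate 3 and 1 in heterozygous MPP2 replicate 1. Hba-a2 and Hbb-b1 are too sparse for a comparison between groups at this depth.

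**Figure D2:**
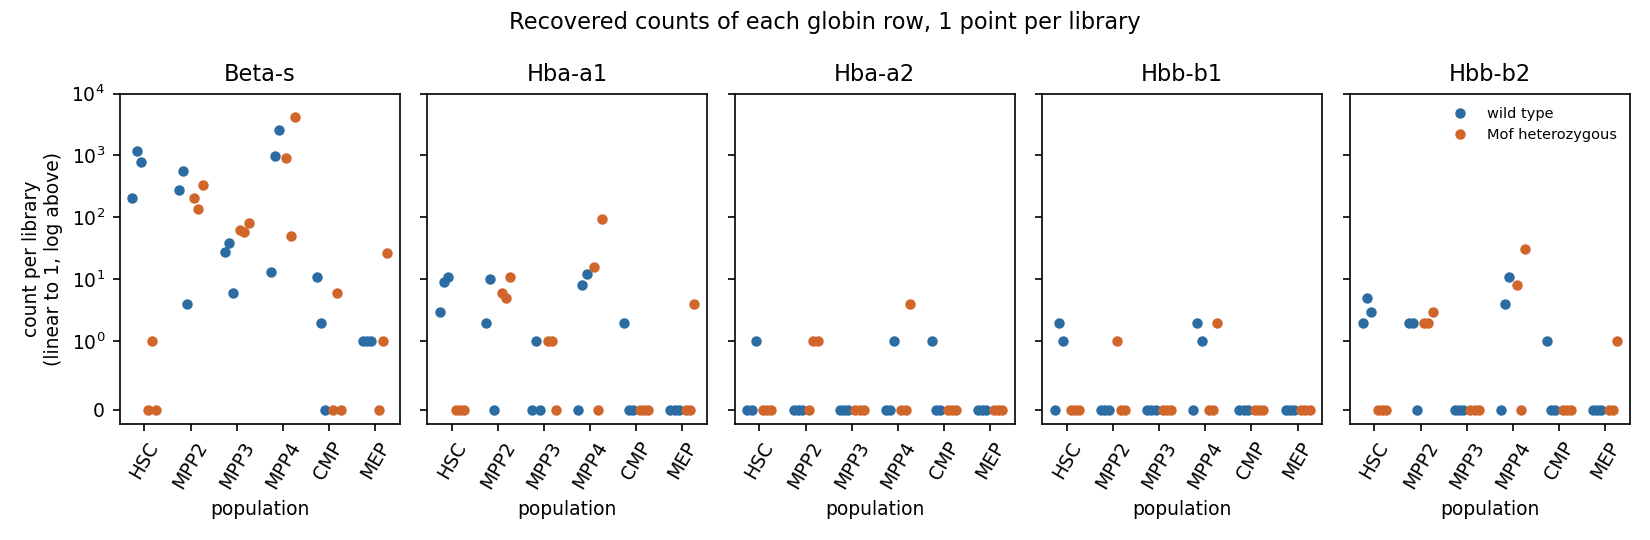
Recovered counts per library (vertical axis, linear to 1 and logarithmic above) of each globin row, by population and genotype, replicates 1 to 3 from left to right in each group. Beta-s reaches 4109 counts, Hba-a1 95 and Hbb-b2 31, all in heterozygous MPP4 replicate 3, while Hba-a2 and Hbb-b1 stay at or below 4.

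Beta-s was the only gene that passed the threshold of the main test between genotypes in HSC. In limma's moderated test on log2(deposited value + 1), fitted over all 36 libraries, it fell by 7.84 in heterozygous HSC (SE 1.32, 95% interval -10.5 to -5.20, Benjamini-Hochberg adjusted p = 0.00110). All 3 heterozygous libraries were below all 3 wild-type ones. In that contrast 0.0155% of the 6444 genes tested were called, which is this 1 gene, and 418 genes had an unadjusted p under 0.05. Because the heterozygous side rests on 1 count, the fitted size depends on the added constant. Pooled counts gave 2181 of 94749 in the wild type and 1 of 74916 in the heterozygotes, a ratio of 1724 with an exact 95% counting interval of 309 to 68144. The call was lost with a constant of 10 (log2 difference -5.20, adjusted p = 0.579), without a filter on low values (adjusted p = 0.148) and in edgeR's quasi-likelihood test on the recovered counts (log2 difference -10.46, adjusted p = 0.189). The 8 late erythroid markers described below were also higher in 2 of 3 wild-type HSC libraries than in every heterozygous one, and their part in the Beta-s difference was not tested. Over all alternatives other than leaving out a library the adjusted p ranged from 5.41e-04 to 0.579.

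Hba-a1 and Hbb-b2 also passed the filter on low values; Hba-a2 and Hbb-b1 did not. In HSC the log2 difference of Hba-a1 was -2.53 (SE 0.91, limma adjusted p = 0.695) and that of Hbb-b2 was -1.68 (SE 0.73, adjusted p = 0.695). Neither passed the threshold, although no heterozygous HSC library had a count of either. The median log2 difference of all genes tested in HSC was -0.34.

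In the other 5 populations none of the 3 tested rows passed the limma test at an adjusted p of 0.05. For Beta-s the log2 difference in MEP was 0.67 (95% interval -1.98 to 3.32), and CMP and MPP3 each had -1.01 (-3.66 to 1.64). MPP4 had -0.24 (-2.89 to 2.41), and MPP2 had -0.08 (-2.73 to 2.57). These intervals are several log2 units wide, so large differences in either direction could not be detected. The median log2 difference of all genes tested was 0.09 in MEP, 0.04 in CMP, 0.56 in MPP3, 0.17 in MPP4 and 0.21 in MPP2. The share of all genes called was 0.031% for each of MEP, CMP and MPP4, 0.31% for MPP3 and 0.0776% for MPP2. Averaged over the 6 populations, where 0.0776% of genes were called, Beta-s had a difference of -1.59 (SE 0.54, adjusted p = 0.245), Hba-a1 of -0.36 (adjusted p = 0.794) and Hbb-b2 of -0.31 (adjusted p = 0.770). Whether the genotype difference itself changed between populations was tested by an F test on 5 contrasts, in which 0.031% of genes were called. Beta-s was not among them (limma adjusted p = 0.105), so its difference in HSC is not shown to differ from that in the other populations. With DESeq2, without the 6 shallow libraries, or without wild-type MPP4 replicate 1 or replicate 3, this test called 1 globin row. The number of all genes it called also moved, from 1 to 190 over the alternatives other than leaving out a library, against 2 in the main fit.

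**Figure D3:**
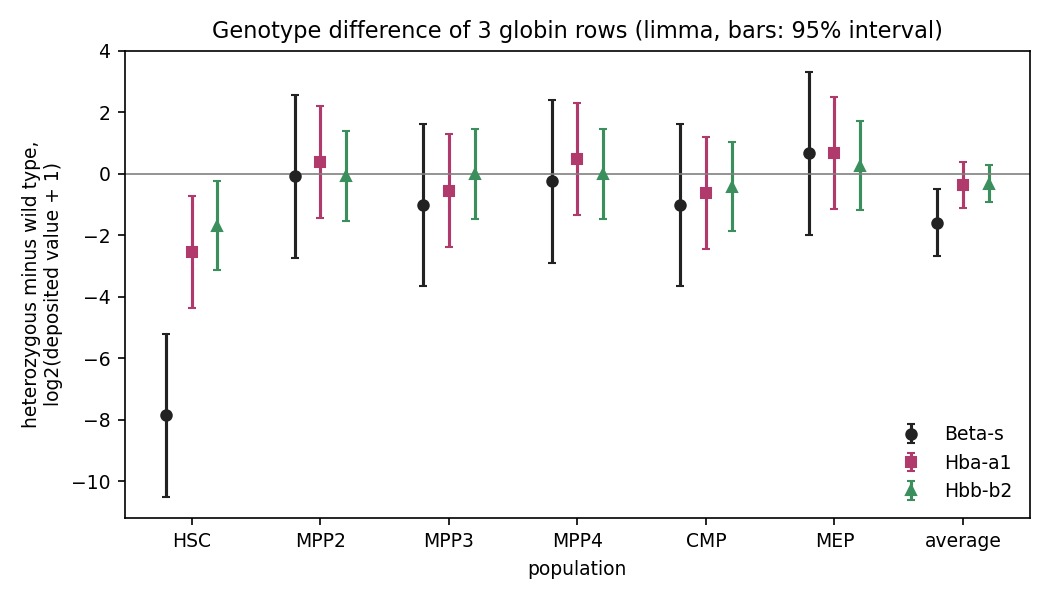
Heterozygous minus wild-type difference on the log2(deposited value + 1) scale (vertical axis) of Beta-s, Hba-a1 and Hbb-b2 in each population and averaged over the 6, from limma, with 95% intervals as bars. The Beta-s interval in HSC, -10.5 to -5.20, lies far below 0, and its intervals in the other 5 populations all include 0.

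Populations within a genotype were compared on counts rescaled to the median library total. In the wild type Beta-s differed between the 6 populations (limma F test, adjusted p = 8.72e-07), as did Hbb-b2 (adjusted p = 0.0438), while Hba-a1 had an adjusted p of 0.0873. Of all genes tested 3.77% were called. Over the alternative settings and the fits without 1 library, 1 to 3 globin rows were called in this test. In the heterozygotes, where 0.754% of genes were called, Beta-s differed (adjusted p = 8.58e-06), and Hba-a1 (adjusted p = 0.0896) and Hbb-b2 (adjusted p = 0.207) did not pass. HSC, the MPPs and the late progenitors are read here as separate pools. On that reading, the difference of HSC and MPP from CMP and MEP cannot be told apart from a difference between pools. Within the wild-type MPPs, read as a single pool, Beta-s still ranged from 288 to 145177 CPM over 9 libraries. In the heterozygous MPPs, read in the same way, it ranged from 713 to 100215 CPM.

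The erythroid genes around the globins were examined by role. Of the embryonic and theta globins (Hbb-y, Hbb-bh1, Hbb-bh2, Hba-x, Hbq1a and Hbq1b) only Hbq1b, a theta globin in the alpha cluster, had any counts: 5 in 4 libraries. In the list for haem synthesis and haemoglobin assembly, 11 of 12 symbols matched a row. Alas2, the erythroid enzyme that starts haem synthesis, had 5, 10 and 12 counts in wild-type HSC and 0, 1 and 0 in heterozygous HSC. It had 0, 6 and 28 counts in wild-type MPP4 and 15, 2 and 47 in heterozygous MPP4. Its counts thus followed the order of the Beta-s counts within both MPP4 groups. Slc25a37, the mitochondrial iron importer mitoferrin, and Cpox, a later enzyme of haem synthesis, were the other leading members, with 252 and 215 counts in all.

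Among red cell membrane genes, Slc4a1, the band 3 anion exchanger, had 0, 27 and 15 counts in wild-type HSC and 0, 1 and 0 in heterozygous HSC. It had 11, 20 and 0 counts in wild-type MPP2 and 1, 12 and 0 in heterozygous MPP2. In MPP4 it had 0, 30 and 20 counts in the wild type and 13, 1 and 93 in the heterozygotes. Slc4a1 was at 0 in all 12 CMP and MEP libraries, and Alas2 had 1 count in each of 2 of them. Other members of these lists were present there: Slc25a37 and Fech had 57 and 25 counts, each in 11 of the 12 libraries. The membrane list summed to 607 ± 388 CPM (SD, n = 3) in wild-type MEP and 513 ± 159 in heterozygous MEP. In wild-type and heterozygous HSC it summed to 1868 ± 1214 and 347 ± 251 CPM. Ermap, an erythroid membrane protein, and Epb4.1, the cytoskeletal protein 4.1, had 197 and 158 counts in all.

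The early erythroid genes Car1 and Klf1 had another distribution. Car1, a carbonic anhydrase of erythroid progenitors, was at 1702 CPM on average in wild-type MEP and 2067 in heterozygous MEP, with 976 counts over all 12 CMP and MEP libraries. In HSC and MPP it had 40 counts in 8 of 24 libraries, 31 of them in heterozygous MPP2. Klf1, the factor that binds CACCC in the beta globin promoter, had 92 counts in 11 of 12 CMP and MEP libraries and 19 in 4 of 24 HSC and MPP libraries. MEP had the highest mean level of Car1 and of Klf1 in both genotypes, and among the wild-type populations it had the lowest mean globin level. The heterozygous populations did not follow one order: MPP2, with 6733 CPM of Beta-s, had more Car1 (381 CPM on average) than CMP (171 CPM), and HSC had no count of Car1 or Klf1 and 1 count of globin. In wild-type HSC, where Beta-s had 2181 counts, Car1 had 1 count and Klf1 had 4. The summed level of the 15 early erythroid genes was 5767 ± 1423 CPM (SD, n = 3) in wild-type MEP and 6016 ± 385 in heterozygous MEP, against 3380 ± 1243 and 2219 ± 1427 in wild-type and heterozygous HSC. The highest sum of any library, 8097 CPM, was in heterozygous MPP4 replicate 3, which was also rich in globin. Car2, Bcl11a and Lmo2, the most abundant of the list, had 1107, 823 and 771 counts in all. Car2 did not share the distribution of Car1: pooled, it was at 677 CPM in HSC and MPP and 576 in CMP and MEP. Gata1 did, with 42.1 CPM in HSC and MPP and 178 in CMP and MEP.

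In the genotype contrast of HSC and in the average over populations, limma called none of the tested genes of these erythroid lists in either direction (11 of 11 matched genes tested for haem, 11 of 15 for the membrane list, 15 of 15 for the early list). The median log2 difference in HSC was -1.09 for the haem list, -1.36 for the membrane list and -0.48 for the early list, beside -0.34 over all genes. In the wild-type limma F test between populations 3.77% of all genes tested were called. They included 1 haem gene (Alas2, adjusted p = 0.0120) and 1 membrane gene (Slc4a1, adjusted p = 0.0485), each of 11 tested. Of the 15 early genes 5 were called (Car1, Klf1, Gata1, Gfi1b and Aqp1, adjusted p from 1.32e-09 for Car1 to 0.0357 for Gata1). In the heterozygous test 0.754% of all genes were called, among them Car1 and Aqp1, with limma adjusted p = 1.64e-09 and 0.04996.

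A list of 10 markers of reticulocytes and late erythroid cells was summed, of which 8 had a row (among them Alas2, Slc4a1, Fech and Slc25a37). Within both MPP4 groups their sum followed the order of the globins. In wild-type MPP4 these markers summed to 104, 1599 and 5044 CPM, where globin was at 339, 25720 and 146563. In heterozygous MPP4 they summed to 514, 215 and 7122 CPM. The order differed in heterozygous MPP2, with 201, 2445 and 458 CPM of markers where globin was at 5385, 7544 and 8275. It also differed in heterozygous MPP3, with 306, 250 and 182 CPM where globin was at 1072, 726 and 1146. Of the 8 libraries highest in globin, 7 were among the 8 highest in these markers. In wild-type HSC the markers summed to 481, 2080 and 1897 CPM and in heterozygous HSC to 154, 1268 and 186, where the 1268 is 2 counts in the shallow replicate 2. CMP libraries had 53.9 to 172 CPM and MEP libraries 70.4 to 220, with Slc4a1 at 0. As a description over the 36 libraries, which differ in depth and in population, Spearman's rho between this list and the globins was 0.81. Late erythroid cells in the sort and free RNA as sources of the globin counts were not tested. The ratio of these genes to globin was not constant: over the 12 libraries with at least 100 globin counts, Slc4a1 ranged from 0 to 82.8 and Alas2 from 6.1 to 41.4 counts per 1000 globin counts.

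The other lists varied in how far they followed the globins. Spearman's rho with the globins over the 36 libraries was 0.66 for the haem list, 0.47 for the membrane list and -0.19 for the early erythroid list. It was 0.05 for the neutrophil markers, 0.61 for markers of B cells and their precursors, 0.42 for macrophages and monocytes and -0.54 for platelets and megakaryocytes. Neutrophil markers, led by S100a9, S100a8 and Camp, which encode granule and calcium-binding proteins, were high in wild-type MPP4 replicate 3 (34978 CPM) but at 854 CPM in heterozygous MPP4 replicate 3. They were also high in wild-type MEP replicate 2 (32832 CPM) and heterozygous MEP replicate 3 (29591 CPM), of which the first had 28.6 CPM of globin. B cell markers, led by Vpreb3, Cd74 and Cd79b, reached 6817 CPM in wild-type MPP2 replicate 3, a library with 4 globin counts, and 5921 CPM in wild-type HSC replicate 3, with 798. The list of progenitor markers (Mpo, Kit, Cd34, Flt3, Slamf1, Cd48 and Ly6a) had a rho of -0.51. It summed to 710 ± 508 CPM (SD, n = 3) for wild-type HSC and 540 ± 560 for heterozygous HSC. The part of any of these cell types in the globin values was not tested.

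**Figure D4:**
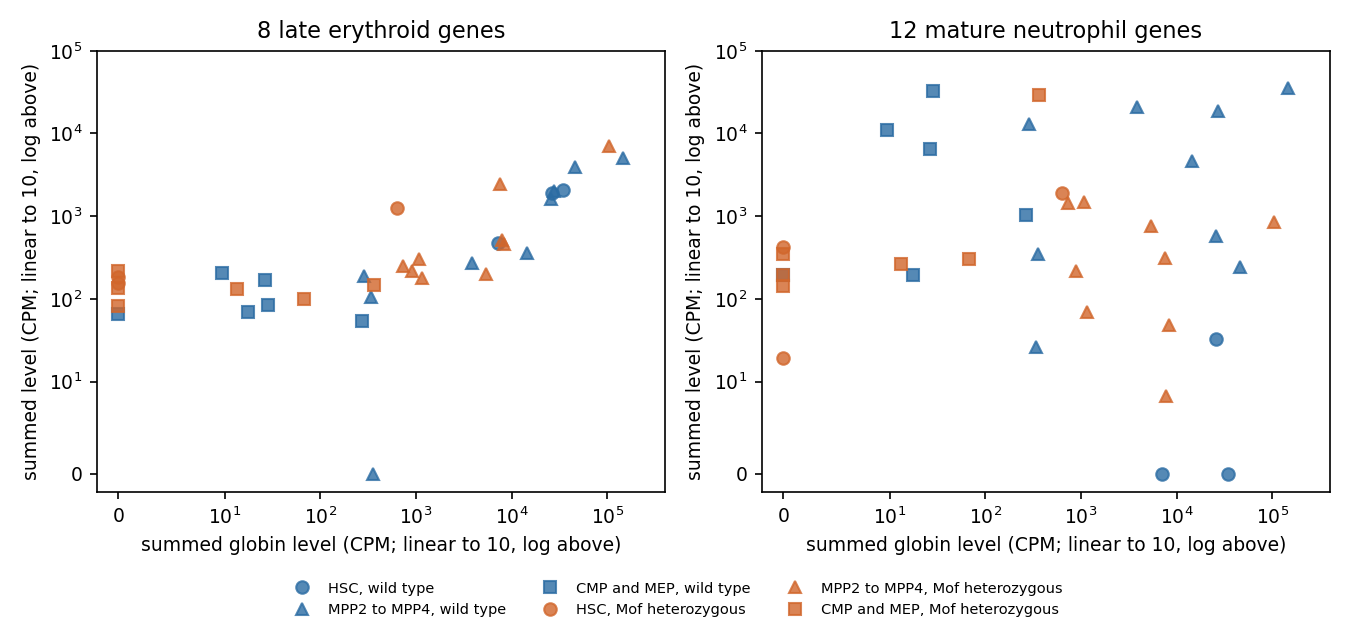
Summed level of 8 late erythroid markers (left) and 12 mature neutrophil markers (right) against the summed level of the 5 globin rows, both in CPM on axes that are linear to 10 and logarithmic above, 1 point per library. The 2 libraries highest in globin have 5044 and 7122 CPM of late erythroid markers, more than all others, while neutrophil markers are high in libraries with 28.6 CPM of globin as well as with 146563.

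The genes whose level over the 36 libraries was most like that of the globins were ranked among the 7404 genes with a count in at least 18 libraries. Alas2 came first (Spearman's rho 0.76, and 0.85 and 0.80 within the 18 wild-type and 18 heterozygous libraries). It was followed by Slc25a37 (0.74), Srp14, a subunit of the signal recognition particle (0.70), E2f2, a cell-cycle transcription factor (0.69), and Cd24a, a surface sialoprotein of several immature blood cells (0.67). Without the 6 shallow libraries the 5 values ranged from 0.63 to 0.84. Alas2 and Slc25a37 were members of the haem list. The libraries differ in depth and are read as sharing pools, so these values rank genes and test nothing.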

How the data were processed

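CEL-Seq2 libraries of 15 sorted bone marrow cells were deposited as 12 tables of 3 libraries each, 1 per population and genotype. The values are a signal per gene, which the authors scaled: each deposited column is a whole count times a constant. BWA 0.6.2-r126 and mm10 are named in the submitters' processing notes; for the counting tool, molecular identifiers and scaling, nothing is given in the sources used here. Dividing each deposited column by its smallest positive value gave whole numbers (tolerance 0.01) for 100% of values, taken as counts. One shift was corrected: in the wild-type MEP table names were taken by position, since 92 lines there have no name. CPM used the total without spike-in rows.

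The main test, run on the deposited values, was limma 3.58.1 in R 4.3.3 with eBayes and a trend on log2(value + 1), for genes with a mean of at least 1, with 1 coefficient per population and genotype and Benjamini-Hochberg adjustment over all genes tested (threshold 0.05). The contrast averaged over populations was tested on simulated data; the contrasts of single populations were not. Populations were compared on counts rescaled to the median library total. On the recovered counts, edgeR 4.0.16 (quasi-likelihood, TMM) called 0 genes of 1633 in HSC and 31 averaged over populations, and DESeq2 1.42.0 called 2 and 379. The other alternatives were constants of 0.1 and 10, no filter, a mean of at least 5, other scalings, omission of the 6 shallow libraries and of each of the 36 libraries in turn. Added after the data were seen were scaling without the 5 globin rows and the wild-type MEP names as deposited.

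Members and lists were chosen with earlier results of these data known. Genes named were the 5 globin rows, the 3 most abundant of each list, list members called by a fit, and the 5 genes most like the globins in rank; other list symbols are named only to say what a list holds, and 1 item is not reported here. Counts of 1 library have exact Poisson or binomial intervals at 95%, and 3 counts are the floor for a count of 0. Scripts ran in Python 3.11.15.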

Additional observations from a re-analysis of the deposited data

How the results depend on the processing

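The log2 differences of Beta-s, Hba-a1 and Hbb-b2 in HSC and averaged over populations kept their sign in every alternative that tested them. Signs in the other populations were not followed over the alternatives. The 12 group means of summed globin CPM moved by less than 1 SD in 71 of 72 alternative values; the exception was wild-type MEP with its names as deposited, which gave 1133 CPM through other genes' counts. Leaving out 1 library gave means of 13029.6 to 86141 CPM in wild-type MPP4 and 4365 to 55634 in heterozygous MPP4. In HSC, the number of globin rows called went from 1 to 0 with a constant of 10, with no filter and in edgeR; Beta-s kept its call in DESeq2 (adjusted p = 5.41e-04), without the shallow libraries (-8.65, adjusted p = 0.00173) and in all 36 fits that left out 1 library (-8.65 to -7.39). In the other genotype contrasts 0 rows were called under every alternative run; MPP2 could not be fitted without the shallow libraries, which are all of its wild type. The interaction called 1 row in DESeq2, without the shallow libraries, and without wild-type MPP4 replicate 1 or 3, and 0 in the rest. For wild-type populations 1 row in place of 2 was called with a constant of 10, no filter, a mean of at least 5, edgeR and DESeq2, and 1 to 3 when 1 library was left out. For heterozygous populations 0 rows were called with a constant of 10, 2 in edgeR, in DESeq2 and without the shallow libraries, 3 with TMM scaling, and 1 to 3 when 1 library was left out. The cause of these changes was not tested. Over the alternatives all genes called ranged from 2 to 379 (main 5) for the average, from 85 to 915 (main 245) for wild-type populations and from 12 to 428 (main 49) for heterozygous ones, from 1 to 190 (main 2) for the interaction, and in single populations from 0 to 2 in HSC, 0 to 109 in MPP2, 3 to 269 in MPP3, 0 to 33 in MPP4, 0 to 32 in CMP and 0 to 53 in MEP. No paired analysis was possible because the columns carry running numbers and no replicate number shared between genotypes. Depth limits Hba-a2 and Hbb-b1, at 9 counts each, and wild-type MPP2 and MPP3, where 1 count is worth up to 362 CPM.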
